A study of Rattus norvegicus with 18 samples.

Results

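TCDD (2,3,7,8-tetrachlorodibenzo-p-dioxin) is a persistent chlorinated pollutant, and this comparison asked which RNAs it changed in primary rat hepatocytes, the main cell type of the liver, cultured fresh from tissue. It holds 6 of the 18 RNA-seq libraries of the series: TCDD replicates 2, 3 and 4, exposed to 1 nM TCDD for 6 h, and control replicates 1, 2 and 3, kept for 6 h in the vehicle alone. TCDD and control cells shared the same medium with 0.1% DMSO. The libraries were chosen by label, and TCDD replicate 1 was left out because of its depth of 6563387 estimated counts and its 27416 transcripts above 0, against 9768588 to 11479466 counts and 19151 to 19592 transcripts in the 6 libraries used. The other groups, which served for a shared estimate of the spread and as comparators, were 4 libraries of 3 mM acetaminophen (APAP), 4 of 1 mM trichloroethylene (TCE) and 3 of carbon tetrachloride (CCl4, dose not given in the sources used here). These groups were also exposed for 6 h, with 0.1% DMSO. Nothing in the labels states that replicates of a group were separate animals or cultures. The p-values thus cover the spread between these libraries alone, which may be technical.

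TCDD acts mainly through the aryl hydrocarbon receptor, a transcription factor that waits in the cytosol bound to chaperones until a ligand enters. The occupied receptor moves to the nucleus, pairs with its partner ARNT and binds short response elements near its target genes. In liver the best known targets are cytochromes P450 of the CYP1 family, with other enzymes such as NQO1 and glutathione transferases. The deposited tables list transcripts by Ensembl identifier and do not pair identifiers with gene names, and 0 of 30897 identifiers matched the RefSeq table used for names. Receptor targets, hepatocyte markers and markers of other liver cells were therefore not analysed here, and neither the exposure nor the cell type was checked against the data. Transcripts are described by level, length and behaviour, and 4 of them by identifier.

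The 6 libraries did not fall into tight groups. Across 16270 tested transcripts, log2(CPM + 1) values (CPM, the estimated count scaled to library size with TMM factors) of control replicates 1 and 2 correlated at 0.982. Control replicate 3 correlated with those at 0.978 and 0.973, and at 0.981, 0.979 and 0.972 with TCDD replicates 2, 3 and 4. Control replicate 3 was thus nearer to TCDD replicates 2 and 3 than to either other control. This was not particular to TCDD: it correlated at 0.971 to 0.982 with the TCE libraries and at 0.977 to 0.980 with the CCl4 libraries. TCDD replicates 2 and 3 correlated at 0.982, while TCDD replicate 4 correlated with them at 0.973 and 0.975. These correlations are across transcripts, which are not independent replicates, and are given as a description.

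**Figure D1:**
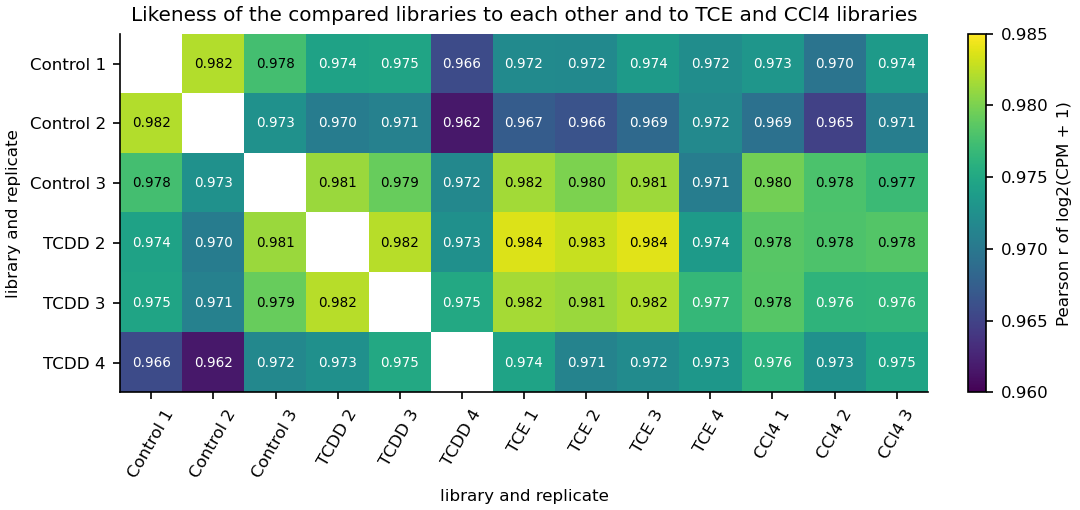
Pearson correlation of log2(CPM + 1) across 16270 transcripts between each of the 6 compared libraries (rows) and the control, TCDD, TCE and CCl4 libraries (columns); colour and printed value show r, and a library is not compared with itself. Control 3 is at 0.978 and 0.973 with the other controls and at 0.981 and 0.979 with TCDD 2 and TCDD 3, and TCDD 4 is at 0.976 or below with every library shown.

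The same libraries stood apart transcript by transcript. Among 7457 transcripts that reached 20 CPM in at least 1 of the 6 libraries, control replicate 3 was over 2-fold below both other controls at 113 and over 2-fold above both at 7. Control replicate 1 was apart from both others in this way at 18 transcripts and control replicate 2 at 19. The 113 transcripts low in control replicate 3 were long, with a median length of 4509 bases against 2338 for all 7457. At 105 of them all 3 TCDD libraries also lay below control replicates 1 and 2 (92.9%, against 30.7% of the 7457), a count that leans on the choice of transcripts high in those controls and is not a test. TCDD replicate 4 was apart from both other TCDD libraries at 106 transcripts, 82 of them lower, against 32 for TCDD replicate 2 and 27 for TCDD replicate 3. The 82 had a median length of 2654.5 bases. In the comparison below 0 of these 82 and 1 of the 113 low in control replicate 3 were called, against 249 of the 7457. Both sets were picked for a wide gap within a group, which makes a call less likely, so these counts are not a test either. An abundant transcript of 798 bases shows the gap: it held 0.471% and 0.435% of counts in TCDD replicates 2 and 3, 2.41% in TCDD replicate 4, and 1.15% to 1.36% in the controls.

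Between TCDD and control, 273 of the 16270 tested transcripts differed (1.68%): 109 were higher with TCDD (0.67%) and 164 were lower (1.01%). The test was edgeR's quasi-likelihood test, with p-values adjusted by the Benjamini-Hochberg method over all transcripts tested and a threshold of 0.05. Most changes were small. The median size was 0.47 on the log2 scale, a fold of 1.38, and 24 transcripts (0.148% of those tested) changed by over 2-fold, 12 in each direction. The adjusted p-values of the 273 lay between 0.0249 and 0.0498, so no call had a wide margin, and 0 transcripts passed at 0.01. At an unadjusted p under 0.05 there were 3205 transcripts, 19.7% of those tested. The libraries of both groups did not overlap at 3293 transcripts (20.2%), 1629 higher (10%) and 1664 lower (10.2%), and at 269 of the 273 called.

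**Figure D2:**
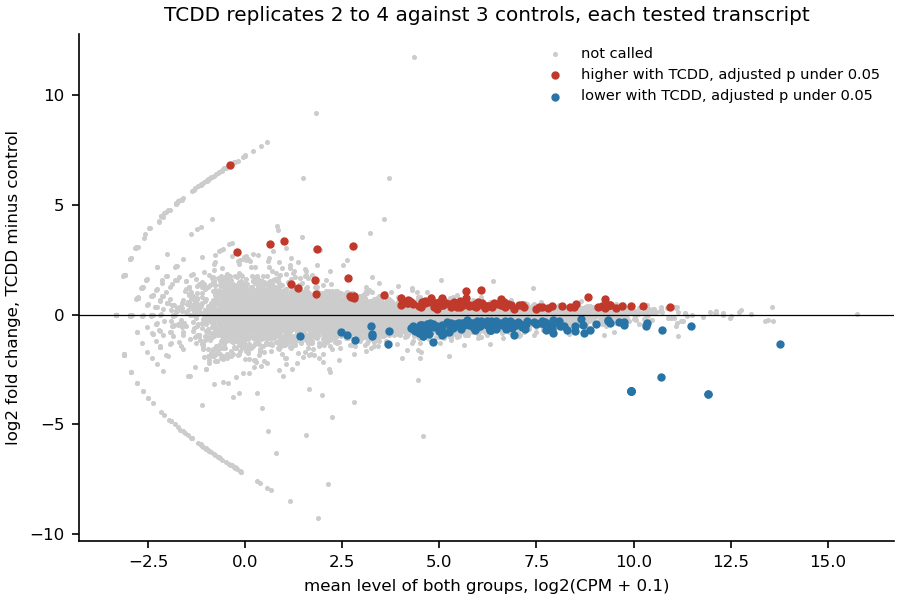
Log2 fold change of TCDD replicates 2 to 4 against 3 controls (vertical axis) by mean level of both groups, log2(CPM + 0.1) (horizontal axis), 1 point per tested transcript; red and blue points are the 109 higher and 164 lower calls. Most calls lie close to 0, and a few abundant transcripts at the lower right stand far below the rest.

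The number of calls rested on single libraries. It was 0 without control replicate 1 (2179 at an unadjusted p under 0.05), 1 without control replicate 2 and 1697 without control replicate 3. It was 191 without TCDD replicate 2, 0 without TCDD replicate 3 (2924 unadjusted) and 32 without TCDD replicate 4, and 1189 without control replicate 3 and TCDD replicate 4 together. All 273 calls were among the 1697, and 250 of them among the 1189. Since 0 transcripts passed without control replicate 1 or TCDD replicate 3, each transcript described below lost its call there. Leaving out libraries of other compounds, which changes both the estimate of the spread and the transcripts that pass the filter, moved the count too: it was 131, 118, 95 and 573 without TCE replicates 1 to 4, 86, 41 and 112 without CCl4 replicates 1 to 3, and 135, 190, 110 and 226 without APAP replicates 1 to 4. With only the 6 compared libraries in the fit, 3 transcripts passed, 2 of them among the 273. With TCDD replicate 1 kept the count was 717, of which 232 were shared. The balance of directions depended on scaling: 39.9% of calls were higher with TMM factors, 59.7% of 226 with upper quartile factors and 89.1% of 777 with scaling to total counts.

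**Figure D3:**
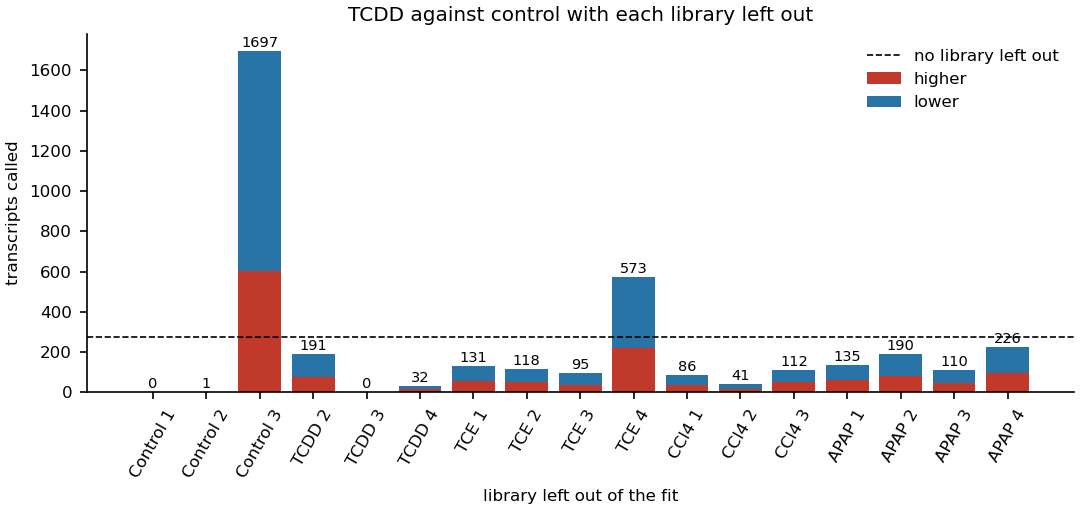
Transcripts called in TCDD against control (vertical axis; red higher, blue lower, total printed above each bar) when each of the 17 libraries is left out of the fit in turn (horizontal axis). The dashed line marks the 273 calls with no library left out; the count is 1697 without control 3 and 0 without control 1 or TCDD 3.

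A small set of very abundant transcripts fell. Of the 12 transcripts lower by over 2-fold, 9 had at least 1000 CPM in the control. They were 5 transcripts of 411 bases with identical values, 2 of 666 bases with identical values, 1 more of 666 bases and 1 of 1140 bases. Together they held 5.10%, 4.02% and 5.17% of all counts in control replicates 1, 2 and 3, and 1.06%, 0.918% and 1.37% in TCDD replicates 2, 3 and 4. The groups did not overlap, and the means were 4.77% ± 0.645 in the control and 1.12% ± 0.233 with TCDD (SD, n = 3 each). These transcripts were picked for their fall in these libraries, so the sum is a description.

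ENSRNOT00000077306.1 and ENSRNOT00000087247.1, the identical pair of 666 bases, showed the deepest fall of the set. Each had 7723, 4926 and 8808 CPM in control replicates 1, 2 and 3, and 691, 234 and 819 CPM in TCDD replicates 2, 3 and 4. All 3 control libraries lay far above all 3 TCDD libraries. On the per-length scale the level fell from 18626 ± 4307 to 1623 ± 815 TPM (estimated count scaled to effective length and library; SD, n = 3 each). The log2 fold change was -3.62 ± 0.64 (SE; edgeR adjusted p = 0.0279), or 12.3-fold lower with a 95% interval of 4.76 to 31.8. As the pair is identical in every library, its reads were not told apart and the values stand for 1 measurement. The edgeR adjusted p of each was 0.122 without control replicate 1, 0.0723 without control replicate 2, 0.0682 without TCDD replicate 3, 0.0601 without TCDD replicate 4 and 0.142 in the fit of the 6 libraries alone.

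The other members of the set moved the same way. The 5 identical transcripts of 411 bases had 1299 to 2085 CPM each in the controls and 79 to 209 CPM in the TCDD libraries (log2 fold change -3.46 ± 0.59 SE; edgeR adjusted p = 0.0276). The third transcript of 666 bases had 2279 to 3355 CPM and 159 to 569 CPM (-2.84 ± 0.56 SE; edgeR adjusted p = 0.0302). The transcript of 1140 bases, second by control TPM, was the 1 member with whole-number counts in all 18 libraries. Its counts in the controls, 249892, 219346 and 212763, were of a size at which the deposited values show no decimals. Whether its reads were divided there can therefore not be told. This transcript had 21210, 19854 and 19413 CPM in the controls and 6781, 7295 and 9690 CPM in the TCDD libraries. The difference was -1.35 ± 0.23 on the log2 scale (SE), at an edgeR adjusted p of 0.0276. The most abundant transcript of all, of 2069 bases, made up 5.64% ± 0.214 of control counts and 6.03% ± 0.358 of TCDD counts (SD, n = 3 each), and its log2 fold change was 0.02 ± 0.06 (SE; edgeR adjusted p = 0.917).

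TCDD replicate 1, which carries the same label, did not show this fall. The 9 transcripts held 4.44% of its counts, a value between those of control replicates 1 and 2. They held 1.15% to 1.71% in the 4 TCE libraries, 3.86% to 6.16% in the 3 CCl4 libraries and 2.09% to 6.06% in the 4 APAP libraries. The low values were thus found in TCDD replicates 2 to 4 and in TCE. Against CCl4 and against APAP all 9 were lower with TCDD (edgeR adjusted p under 0.05). Of all 16270 tested transcripts, 0.99% differed from CCl4 and 50.8% from APAP in either direction. Against TCE 0 of 9 differed, but so did 0 of all tested, so that count is not particular to the 9. The 9 were picked for their fall in these same TCDD libraries and hold only 4 distinct sets of values. These counts are therefore a description and no separate support for the fall. The difference of ENSRNOT00000077306.1 between TCDD and TCE was -0.41 on the log2 scale with a 95% interval of -1.58 to 0.76. Whether these levels go with the compounds or with something else that TCDD replicates 2 to 4 shared with the TCE libraries was not tested. With TCDD replicate 1 kept, the log2 fold change of ENSRNOT00000077306.1 was -1.66 (edgeR adjusted p = 0.254).

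**Figure D4:**
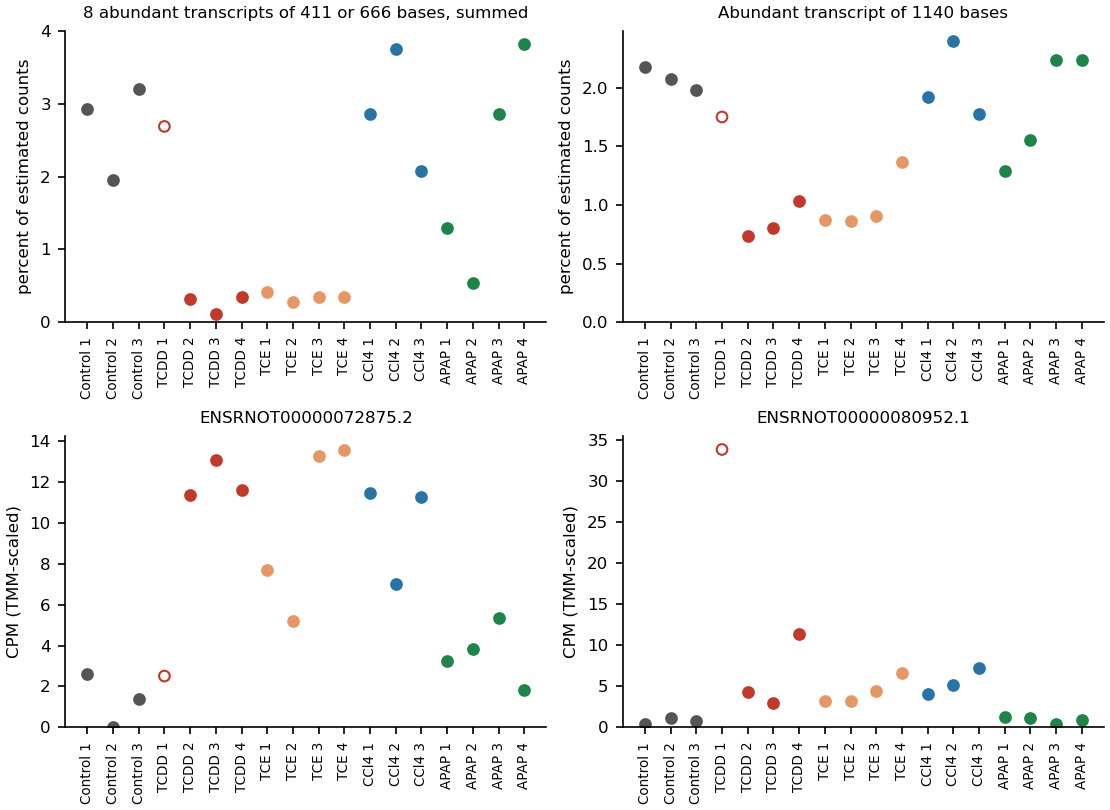
Levels in each of the 18 libraries (horizontal axis; colour marks the group, and the open circle is TCDD replicate 1, which was not used): percent of estimated counts in the 8 abundant transcripts of 411 or 666 bases and in the abundant transcript of 1140 bases (top), and TMM-scaled CPM of ENSRNOT00000072875.2 and ENSRNOT00000080952.1 (bottom). TCDD 2 to 4 and the TCE libraries are low in both top panels, while TCDD 1 lies near the controls there. APAP 2 is also low in the top left panel.

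Outside this set falls over 2-fold were few. A transcript of 4236 bases fell from 18.6, 18.8 and 16.7 CPM in the controls to 6.78, 7.32 and 7.59 CPM with TCDD (log2 fold change -1.32 ± 0.24 SE; edgeR adjusted p = 0.0279). Its control libraries lay close together and far above all 3 TCDD libraries. A transcript of 4019 bases had 44.1, 51.8 and 23.4 CPM in the controls and 15.9, 19.1 and 15.8 CPM with TCDD (-1.23 ± 0.27 SE; edgeR adjusted p = 0.0407). Here control replicate 3 stood much nearer to the TCDD libraries than to the other controls. A transcript of 1634 bases with whole-number counts had 10.9, 11.1 and 6.66 CPM against 4.91, 4.75 and 3.36 CPM (-1.13 ± 0.27 SE; edgeR adjusted p = 0.0463). Mean levels with TCE, CCl4 and APAP also lay below the control mean for each. They were 9.34, 10.3 and 8.43 CPM at 4236 bases, 20.6, 15.6 and 25.2 CPM at 4019 bases, and 6.09, 4.60 and 8.06 CPM at 1634 bases.

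Of the 12 transcripts higher by over 2-fold, 6 reached 5 CPM in either group. ENSRNOT00000072875.2, of 671 bases, had 2.63, 0 and 1.37 CPM in the controls and 11.4, 13.1 and 11.6 CPM with TCDD. The TCDD libraries were close to each other and far above every control. Its level rose from 3.38 ± 3.38 to 33.8 ± 3.93 TPM (SD, n = 3 each), and its log2 fold change was 3.15 ± 0.62 (SE; edgeR adjusted p = 0.0302), or 8.86-fold with a 95% interval of 3.53 to 22.3. TCDD replicate 1 had 2.51 CPM, within the range of the controls.

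ENSRNOT00000080952.1, of 192 bases, had 0.424, 1.09 and 0.821 CPM in the controls and 4.32, 2.98 and 11.3 CPM with TCDD. TCDD replicate 4 was far above the other TCDD libraries, and TCDD replicate 1 reached 33.8 CPM. The log2 fold change was 2.98 ± 0.54 (SE; edgeR adjusted p = 0.0279) and 2.22 without TCDD replicate 4 (edgeR adjusted p = 0.0655). It rests on 4.9 to 11.8 estimated counts in each control and 37.3 to 118.0 in each TCDD library. This transcript is about as short as the 185.7 to 190.3 bases by which length and effective length differed in the TCDD libraries, which makes its count uncertain. Neither ENSRNOT00000072875.2 nor ENSRNOT00000080952.1 had whole-number counts in all libraries, so both can trade reads with similar transcripts. Their edgeR adjusted p-values were 0.122 and 0.164 without control replicate 1, 0.0746 and 0.0922 without control replicate 2, 0.0738 and 0.0682 without TCDD replicate 3, and 0.0670 and 0.0655 without TCDD replicate 4. They were 0.0593 and 0.0517 without the 4 APAP libraries and 0.316 for both with only the 6 libraries, and ENSRNOT00000072875.2 had 0.0507 without CCl4 replicate 2.

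The remaining rises over 2-fold at 5 CPM or more were smaller. A transcript of 494 bases had 2.21, 1.99 and 4.56 CPM in the controls and 9.57, 7.97 and 10.8 CPM with TCDD (log2 fold change 1.69 ± 0.41 SE; edgeR adjusted p = 0.0495). A transcript of 2757 bases had 1.87, 1.45 and 1.64 CPM and 4.83, 3.70 and 6.54 CPM (1.59 ± 0.31 SE; edgeR adjusted p = 0.0291), which was the largest rise among called transcripts with whole-number counts. A transcript of 2702 bases had 44.8, 43.8 and 38.0 CPM and 91.0, 97.2 and 89.7 CPM (1.13 ± 0.18 SE; edgeR adjusted p = 0.0267). A transcript of 953 bases had 35.2, 32.5 and 30.9 CPM and 68.4, 71.1 and 69.5 CPM (1.08 ± 0.26 SE; edgeR adjusted p = 0.0495). In all of these transcripts every TCDD library lay above every control, which the rule for picking them required. Several of these rises were also found with other compounds. Mean levels with TCE, CCl4 and APAP were 7.91, 10.1 and 24.45 CPM for the transcript of 494 bases. They were 5.14, 4.42 and 0.976 CPM for that of 2757 bases, and 73.4, 92.0 and 89.4 CPM for that of 953 bases.

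Among the 273 calls, 126 had whole-number counts in all 18 libraries, 43 higher and 83 lower, against 6375 of the 16270 tested. Only 3 of these 126 changed by over 2-fold: the transcripts of 1140, 2757 and 1634 bases given above. Transcripts whose values are identical to those of another made up 9 of the 273 calls and 122 of the 16270 tested. Calls were more frequent among abundant transcripts. Of transcripts below 1 TPM in the control 0.182% were called (4 of 2194), of those at 10 to 100 TPM 2.63% (169 of 6425), and of those at 1000 TPM or more 12.9% (19 of 147). The median standard error of the log2 fold change was 0.67, 0.12 and 0.09 in these classes, so the test could see smaller differences in abundant transcripts.

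Direction went with transcript length. Of the 50 calls up to 1000 bases, 41 were higher, and of the 59 over 4000 bases, 53 were lower. Among all tested transcripts the change was positive for 71.0% up to 500 bases and 68.6% above that up to 1000. Over 4000 bases it was positive for 33.4%. The median length was 1338 bases for higher calls, 3255 for lower calls and 2149 for all tested. The same tilt ran through all tested transcripts, called or not. Their median log2 fold change was 0.21 up to 500 bases, 0.14 above that up to 1000, 0.06 up to 2000, -0.04 up to 4000 and -0.14 over 4000 bases.

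**Figure D5:**
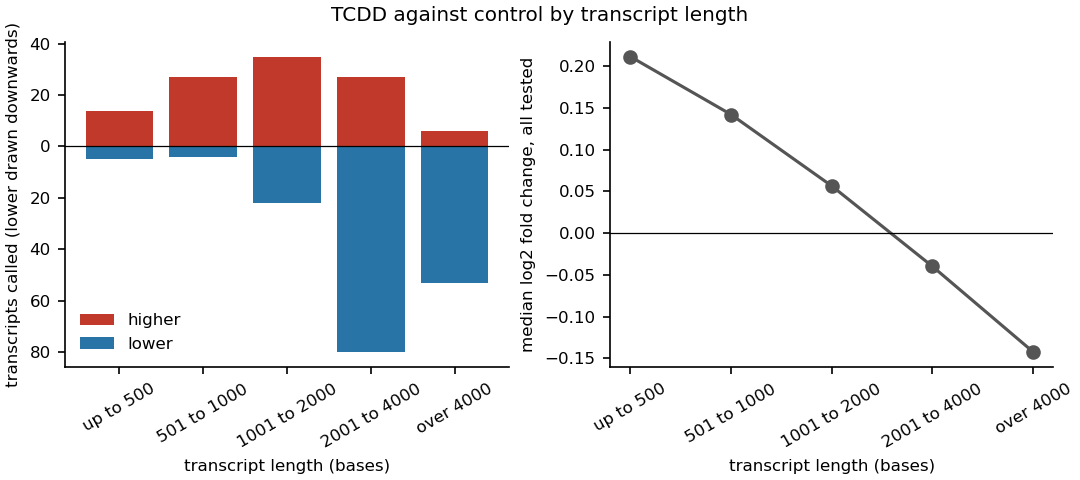
TCDD against control by transcript length class in bases (horizontal axes): number of transcripts called higher (red, upwards) and lower (blue, downwards), left, and median log2 fold change of all tested transcripts in the class, right. The median goes from 0.21 in the shortest class to -0.14 in the longest.

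By library, the tilt separated 2 controls from the other libraries compared. It was measured as the median deviation from the mean of 17 libraries, on the log2(CPM + 1) scale, of 1192 transcripts up to 1000 bases minus that of 2199 transcripts over 4000 bases, all at 5 CPM or more in either group. It was -0.45 and -0.57 in control replicates 1 and 2, and -0.09 in control replicate 3. The TCDD libraries had -0.06, -0.12 and -0.01, so control replicate 3 lay inside their range. The means were -0.37 ± 0.25 in the control and -0.06 ± 0.06 with TCDD (SD, n = 3 each; exact two-sided permutation test, p = 0.2, where 3 against 3 libraries cannot go below 0.1). The CCl4 libraries lay between -0.10 and 0.04, the TCE libraries between -0.30 and 0.11 and the APAP libraries between 0.19 and 0.57. With each library's trend with length removed, 154 transcripts were called, 69 higher and 85 lower, and 126 of them were among the 273.

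The share of all counts was also taken by length class. Transcripts above 1000 and up to 2000 bases made up 35.7% ± 1.16 of control counts and 37.6% ± 0.0703 of TCDD counts (SD, n = 3 each; exact permutation test, p = 0.1, adjusted p = 0.5 over 5 classes), with no overlap. The other 4 classes overlapped (exact permutation test, p from 0.2 to 0.8). Several shares depended on the abundant set that fell. Without it, transcripts up to 500 bases made up 1.85% ± 0.176 of control counts and 2.16% ± 0.0879 of TCDD counts (SD, n = 3 each). They then had no overlap (exact permutation test, p = 0.1, not adjusted). Above 500 and up to 1000 bases and above 2000 and up to 4000 bases, the differences also changed sign, still with overlap. The remaining classes kept their direction. The 10 transcripts with the highest control TPM made up 13.5% ± 0.591 of control counts and 10.8% ± 1.24 of TCDD counts, with no overlap (SD, n = 3 each; exact permutation test, p = 0.1, adjusted p = 0.267 over 4 abundance classes). These 10 include members of the abundant set that fell, so their share restates that fall in part.

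TCDD was also compared with the other compounds in the same fit, in contrasts that leave out the control. Doses differ between compounds (1 nM TCDD, 1 mM TCE, 3 mM APAP). TCDD differed from TCE at 0 of 16270 transcripts (0%; edgeR quasi-likelihood test), with 412 (2.53%) at an unadjusted p under 0.05; DESeq2 called 5 and limma voom 0. For 94.8% of the 11389 transcripts at 5 CPM or more, the 95% interval of the TCDD minus TCE difference, not adjusted for the number of transcripts, lay within 2-fold in either direction. It lay wholly beyond 2-fold for 3 of them. Over all 16270 tested transcripts it lay within 2-fold for 76.1% and wholly beyond for 26. The intervals of the remaining transcripts allow differences over 2-fold.

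TCDD differed from CCl4 at 161 transcripts (0.99%), being higher at 33 and lower at 128, and 27 of these differences exceeded 2-fold. Leaving out TCDD replicate 2, 3 or 4 gave 106, 65 or 354 calls, leaving out CCl4 replicate 1, 2 or 3 gave 89, 72 or 87, and leaving out TCE replicate 4 gave 260. With scaling to total counts, 67.3% of 245 were higher, against 20.5% of the 161. TCDD differed from APAP at 8266 transcripts (50.8%), being higher at 4454 and lower at 3812, with 3234 differences above 2-fold. Here 53.9% were higher, against 83.4% of 8776 with scaling to total counts, which moved the median of all tested transcripts from 0.02 to 0.41. ENSRNOT00000072875.2 and ENSRNOT00000080952.1 were higher with TCDD than with APAP, with log2 differences of 1.75 ± 0.52 and 2.77 ± 0.49 (SE) and edgeR adjusted p-values of 0.0108 and 0.000209. Against TCE they differed by 0.27 and 0.50, with 95% intervals of -0.77 to 1.32 and -0.42 to 1.43. Against CCl4 they differed by 0.27 and 0.18, with intervals of -0.85 to 1.40 and -0.82 to 1.17. The transcript of 2702 bases had 92.6 ± 4.02 CPM with TCDD (SD, n = 3), 87.9 ± 10.8 with TCE (SD, n = 4), 39.2 ± 6.08 with CCl4 (SD, n = 3) and 2.72 ± 1.31 with APAP (SD, n = 4), and was higher with TCDD than with CCl4, at a log2 difference of 1.24 ± 0.18 (SE) and an edgeR adjusted p of 0.00273.

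The 4 comparisons with the control share the control libraries, so they are not independent and are set side by side only as values. The 109 transcripts called higher had median log2 fold changes of 0.46 with TCDD, 0.44 with TCE, 0.30 with CCl4 and 0.35 with APAP. The 164 called lower had -0.47, -0.45, -0.33 and -0.03 in the same order. Over all tested transcripts these medians were 0.00, 0.01, -0.01 and -0.04.

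The precision depended on level. The 95% interval of the TCDD minus control difference lay within 2-fold in either direction for 88% of the 11498 transcripts at 5 CPM or more in either group, and wholly beyond 2-fold for 15 of them. Over all 16270 tested transcripts these values were 69.3% and 43. These are single-transcript intervals, with no allowance for how many were tested, and they rest on the spread shared by all 17 libraries.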

How the data were processed

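RNA of 18 hepatocyte libraries was sequenced; 6 are compared here. Per the submitters' processing notes the authors used kallisto 0.43; build and annotation were not given in the sources used here. Tables deposited by the authors list estimated counts, which need not be whole, and TPM, with length and effective length in bases. Deposited TPM was used for levels only.

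Estimated counts were rounded. Transcripts passed edgeR's filterByExpr over 17 libraries (TCDD replicate 1 left out), which were fitted together with group as factor (edgeR 4.0.16, TMM, robust quasi-likelihood, R 4.3.3). A transcript was called at a Benjamini-Hochberg adjusted p under 0.05. Standard errors come from the log2 fold change and F statistic. Named transcripts were called, reached 5 CPM in either group, had no overlap and had the 2 largest changes per direction. Others, described by length, were picked after their values were seen, as was the length tilt by library. The rises and falls described by length outside the abundant set also had to reach 5 CPM and have no overlap. Gene lists that had been drawn up could not be applied. Shares were compared by exact two-sided permutation tests. Alternatives included DESeq2 1.42.0 and limma 3.58.1 voom. The libraries, lists and tests were chosen with earlier results of these data known. Replicate pairs differed by more than sampling noise. No sequences are shown, since no identifier matched the sequence tables.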

Additional observations from a re-analysis of the deposited data

Results flagged for a closer look

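In groups of 4 libraries, 84 sets of values were checked for 1 library far from the other 3, and 14 stood out, where chance gives about 5%. TCDD replicate 1 was the library in 9 of them, a tally that cannot be read against chance: the number of transcripts above 0 was a reason to leave that library out, and the transcripts were picked for their change in TCDD replicates 2 to 4. TCDD replicate 1 listed 27416 transcripts above 0, against 19470 to 19592 in the other TCDD libraries, and 4169 of these were above 0 in no other library. Those 4169 held 0.314% of its counts, with a median of 3.36 counts. Its share of counts in the 9 abundant transcripts was 4.44%, against 0.918% to 1.37%. It had 7327 CPM of ENSRNOT00000077306.1, against 234 to 819, 4143 CPM of the third transcript of 666 bases, against 159 to 569, and 2141 CPM of each transcript of 411 bases, against 79 to 209. It had 2.51 CPM of ENSRNOT00000072875.2, against 11.4 to 13.1, and 132 CPM of the rising transcript of 953 bases, against 68.4 to 71.1. Transcripts up to 500 bases held 3.75% of its counts, against 2.13% to 2.34%, and those above 1000 and up to 2000 bases held 38.9%, against 37.5% to 37.6%.

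TCE replicate 4 had 12158 CPM of the abundant transcript of 1140 bases, against 8100 to 8454 in the other TCE libraries, 27.6 CPM of the falling transcript of 4019 bases, against 17.6 to 19.2, and 16.2% of counts in transcripts over 4000 bases, against 13.4% to 13.8%. TCE replicate 2 had 13.7 CPM of the rising transcript of 494 bases, against 5.60 to 6.68. APAP replicate 1 had 40.5 CPM of the transcript of 953 bases, against 103 to 108 in the other APAP libraries.

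TCDD replicates 2 to 4 differed from the CCl4 libraries at 161 of 16270 transcripts (0.99%) and from the APAP libraries at 8266 (50.8%), by tests of the differences themselves (edgeR quasi-likelihood). All 9 abundant transcripts were among the calls in both, having been picked for their fall in TCDD replicates 2 to 4. TCDD replicate 1 did not have their low levels.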

How the results depend on the processing

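The 273 calls of TCDD against control lay between 0 and 1697 when single libraries were left out. They became 1215 with DESeq2, 777 with scaling to total counts, 3681 with limma voom, 109 with no low-count filter, 154 with the length trend removed, 30 without the 4 APAP libraries, 717 with TCDD replicate 1 kept, 3 with the 6 libraries alone, 0 at a threshold of 0.01 and 1083 at 0.1. The labels do not say whether replicate numbers mark shared cells. Deviations of same-numbered libraries correlated at -0.08 and -0.17 by title, and at -0.08 and 0.07 by the number in the table's name. Pairs with neither number in common lay between -0.05 and 0.17. With so few libraries in a group, these values cannot tell whether replicates were paired. With a replicate block by title number 1 transcript was called, and 0 with the number in the table's name (2625 and 2704 unadjusted). Among alternatives added after seeing the data, the count was 1189 without control replicate 3 and TCDD replicate 4, 168 without the 9 abundant transcripts, and with the 6 libraries alone 13 with the length trend removed and 0 with either replicate block.

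TCDD against TCE had 5 calls with DESeq2 and 0 with each library left out. The 161 calls against CCl4 became 393 with DESeq2, 245 with scaling to total counts, 1140 with limma voom, 106 with the replicate block by table number, 55 with those libraries alone, 441 without control replicate 3 and TCDD replicate 4, 65 at 0.01 and 278 at 0.1, and lay between 65 and 354 with single libraries left out. Against APAP the count stayed between 6432 and 9235. The named transcripts kept their direction in each fit that gave them a value. DESeq2 gave no adjusted p for the 2 rises, which have no value there, and the pair of 666 bases was absent from the fit without the abundant transcripts. The difference in share above 500 and up to 1000 bases, -0.287 percentage points, was 0.576 with TCDD replicate 1 kept and -1.21 to 0.211 with single libraries left out. Above 2000 and up to 4000 bases, 0.448, it was -0.980 with TCDD replicate 1 kept. For the 1000 most abundant transcripts, -0.359, it was -1.18 to 0.657 with single libraries left out. The cause of these changes was not tested. Effective length offsets, collapsing identical transcripts, a filter of 1 CPM, DESeq2 size factors, upper quartile factors and a fit without robust weights left the count within 1.5 times. Sums per gene were not run, since no identifier was paired with a gene.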
